A study of Rattus norvegicus with 9 samples.

Results

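The aminoacyl-tRNA synthetases are described here in primary rat nucleus pulposus cells, which fill the gelatinous centre of the intervertebral disc. They are the 35 genes of the deposited count table whose identifier is that of a synthetase, out of 22324 genes in all. The cytosolic set holds 19 genes (identifiers ending in 1, with Farsa and Farsb) and the mitochondrial set holds 16 (identifiers ending in 2). All 35 were among the 14956 genes that passed the filter on low counts, so no member was lost to it.

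The study sequenced polyA RNA of wild-type cells in 3 groups of 3 libraries. BNPMT and SEN cells had both been driven into senescence with doxorubicin, which damages DNA, at 200 nM for 24 h followed by 6 days in new medium. BNPMT cells had in addition received an intervention named BNPMT, a name the labels do not expand and for which they give no dose or time. NC cells were taken as the untreated control from their title and the series' design, although the doxorubicin protocol is written on all samples. Every group grew in high-glucose DMEM with serum, and the labels do not say that the libraries of a group came from separate cultures, so p-values measure the spread between libraries, which may be technical.

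Synthetases join amino acids to their tRNAs, the step that sets which residue a codon stands for. The cytosolic enzymes serve the translation of nuclear genes, and several of them sit with scaffold proteins in the multi-synthetase complex. A separate nuclear-encoded set is imported to charge the tRNAs of the mitochondrial genome, which encodes subunits of the respiratory chain. Gars1 and Kars1 make the glycine and lysine enzymes of both compartments, and mitochondria charge glutamine tRNA through Ears2 and an amidotransferase. When charging fails, the kinase GCN2 (Eif2ak4) phosphorylates eIF2 alpha, ATF4 is translated more, and in other cells ATF4 raises many cytosolic synthetase genes.

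Promoter windows of RefSeq (rat build GRCr8, 250 bases before to 50 after the start of the gene) matched 33 of the 35 genes by gene identifier or symbol. Gars1 and Rars1 had no match. The core of the amino acid response element bound by ATF4, TGATGNAA, was searched on both strands. It stood in a window of 7 of 17 cytosolic genes (41.2%), of 0 of 16 mitochondrial genes and of 273 of 11409 protein-coding genes tested (2.39%). A gene counted if any of its windows held the motif, and some genes, such as Mars2, had several windows. The 7 genes were Aars1, Cars1, Iars1, Mars1, Nars1, Tars1 and Yars1, all among the 11 cytosolic genes listed as ATF4-responsive in other cells. That list was set from general knowledge, with earlier results of these data known, so the overlap is a description only. A match for each of the 7 genes is printed below because the element stood in these cytosolic windows and in no mitochondrial one, a difference that was not tested. Capitals mark the match, each line runs 5′ to 3′ on the strand that reads TGATGNAA, and at most 30 bases are shown.

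Aars1, chr19:55908480-55908509, minus strand: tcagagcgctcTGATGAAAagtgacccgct
Cars1, chr1:208225334-208225363, plus strand: tttccagaatcTGATGCAAccgcggcgccg
Iars1, chr17:15193658-15193687, plus strand: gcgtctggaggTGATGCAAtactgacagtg
Mars1, chr7:65023752-65023781, plus strand: ggagcccacgcTGATGCAAccggaacgggc
Nars1, chr18:60275778-60275807, minus strand: cctaggtgatcTGATGCAAcgcttcagtca
Tars1, chr2:62114811-62114840, plus strand: agctaaccagcTGATGCAAcgggacgccag
Yars1, chr5:146820190-146820212, plus strand: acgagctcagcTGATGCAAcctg

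CACGTG, the E-box read by MYC and by other basic helix-loop-helix factors, was counted by gene in the same windows. It stood in those of 5 of 17 cytosolic genes (29.4%: Aars1, Farsb, Iars1, Tars1 and Vars1), of 1 of 16 mitochondrial genes (Ears2) and of 9.68% of all genes. The cAMP response element TGACGTCA stood in a window of none of the 33 genes and of 3.17% of all genes. Both motifs read the same on either strand, and they share no bases with the TGATGNAA matches printed above. Hars1 and Hars2 are divergent neighbours whose windows share 243 bases, with starts 144 bases apart. A match is a run of letters in a window and does not show that a factor was bound there.

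Total counts were 35094282 to 41971877 in the BNPMT libraries, 31206834 to 38391586 in the SEN libraries and 34514440 to 41873790 in the NC libraries. CPM below are counts scaled to the total count of the library. Log2 differences are relative to trimmed-mean (TMM) scaling and come, with their SE and adjusted p, from edgeR's quasi-likelihood test with Benjamini-Hochberg adjustment over all genes tested; a gene was called at an adjusted p below 0.05. The TMM factors averaged 1.136 in BNPMT, 0.802 in SEN and 1.097 in NC, so the choice of scale matters for every comparison with SEN. With total counts as the scale, all genes together had a median log2 difference of -0.46 in SEN against NC, of 0.52 in BNPMT against SEN and of 0.06 in BNPMT against NC; with TMM these medians were -0.01, 0.02 and 0.00. Within their groups SEN 1 and BNPMT 1 stood apart, and their deviations went with transcript length (Spearman correlation across genes of -0.41 for SEN 1 and 0.50 for BNPMT 1).

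Per length, the cytosolic genes were far more abundant than the mitochondrial ones in every group. The median level was 55.3 FPKM (counts scaled to transcript length and library total) over the 19 cytosolic genes in BNPMT cells, 27.4 in SEN cells and 49.8 in NC cells. Over the 16 mitochondrial genes it was 2.91 FPKM in BNPMT cells, 0.824 in SEN cells and 2.87 in NC cells. The lowest cytosolic gene stood above the highest mitochondrial gene in BNPMT cells (Iars1 at 22.3 FPKM, Iars2 at 17.0) and in NC cells (Farsa at 21.2, Iars2 at 16.5). In SEN cells the libraries of these genes overlapped (Iars1 at 6.02 ± 0.54 FPKM, Iars2 at 5.84 ± 0.296), so there the sets met within the spread. Sars1, the serine enzyme, led in BNPMT cells (186.5 ± 13.8 FPKM) and in NC cells (206 ± 9.46), whereas Nars1, the asparagine enzyme, led in SEN cells (141.7 ± 2.94; SD, n = 3). Pars2, the mitochondrial proline enzyme, was the lowest of all 35 in SEN cells at 0.108 ± 0.0694 FPKM. When the 35 genes were put in order of level, the libraries' ranges overlapped for 19 of the 34 neighbouring pairs in BNPMT cells, 19 in SEN cells and 16 in NC cells, so much of the order among neighbours lay within the spread.

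**Figure D1:**
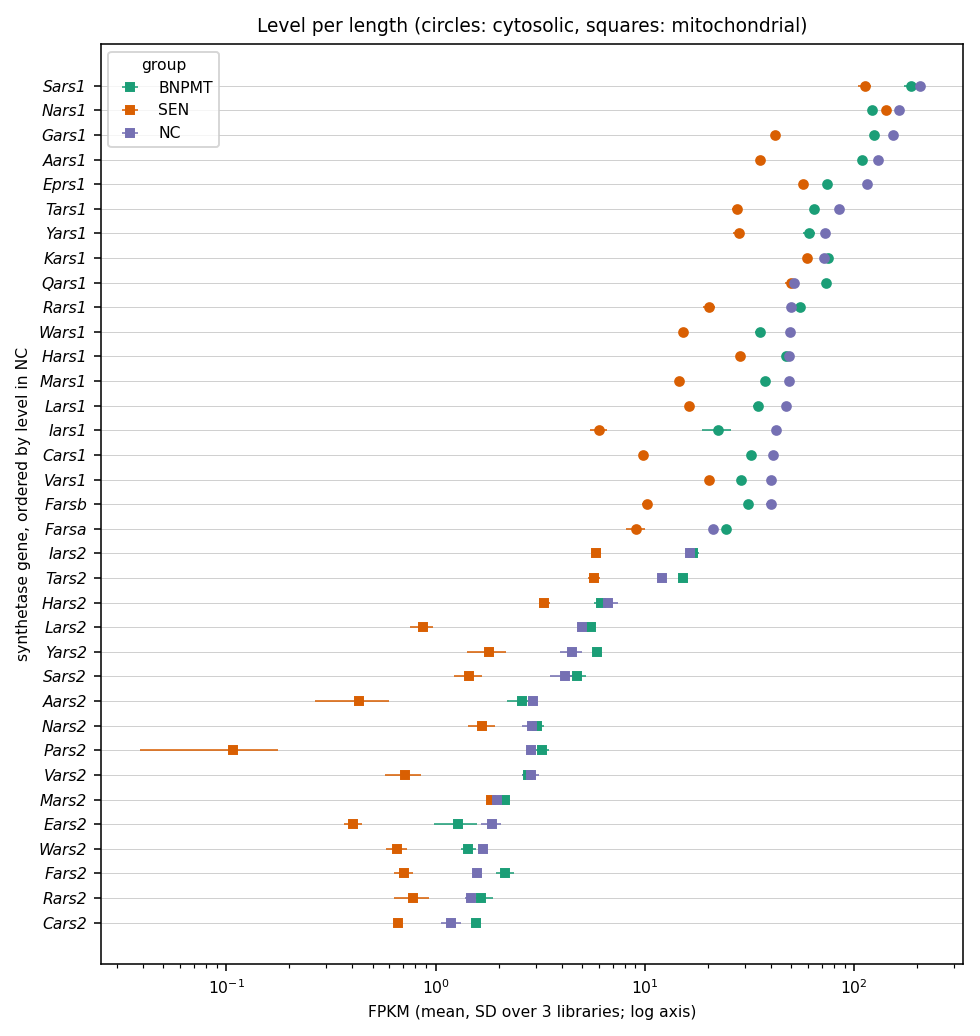
Level per transcript length (FPKM, log axis) of the 35 synthetase genes in BNPMT, SEN and NC cells, with the mean and SD over 3 libraries; circles are cytosolic and squares mitochondrial. In BNPMT and NC cells the lowest cytosolic gene lies above the highest mitochondrial gene, in SEN cells Iars1 and Iars2 overlap, and Pars2 at 0.108 FPKM in SEN cells is the lowest point.

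SEN against NC asks how senescent cells differ from the untreated control, and synthetase transcripts of both compartments were lower in SEN cells. In the cytosolic set 16 of 19 genes fell and 3 rose, beside 38.5% of all genes tested that fell and 37.6% that rose. The median log2 difference was -0.92, against -0.01 for all genes. In the mitochondrial set 15 of 16 fell and 1 rose, with a median of -0.89. The 4 genes that rose (Kars1, Nars1, Qars1 and Mars2) did so by at most 0.40 on the TMM scale, and with total counts as the scale all 4 differences were negative and no member rose: 18 cytosolic and 15 mitochondrial genes fell, beside 56.9% of all genes. By CPM the SEN and NC libraries did not overlap for 18 cytosolic and 15 mitochondrial genes, all lower in SEN cells. The share of all genes without such overlap was not counted, so these counts have no background beside them. Per total count the median log2 difference of all genes was itself -0.46.

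Iars1, the isoleucine enzyme and a member of the multi-synthetase complex, fell the most of the cytosolic genes. Its level was 25.2, 28.0 and 30.1 CPM in the SEN libraries, against 201, 192 and 191 CPM in the NC libraries. All SEN libraries lay far below all NC libraries, with a log2 difference of -2.36 ± 0.10 (SE, edgeR, adjusted p = 5.29e-11). Cars1, the cysteine enzyme, had 31.3, 33.2 and 34.3 CPM in SEN and 136.6, 134.5 and 139.4 CPM in NC, a log2 difference of -1.60 ± 0.05 (adjusted p = 7.8e-12). The groups were as clearly apart for Farsb, the subunit of the phenylalanine enzyme that pairs with Farsa. Farsb had 25.4, 23.7 and 22.9 CPM in SEN and 92.6, 97.8 and 89.2 CPM in NC, and its log2 difference was -1.50 ± 0.07 (adjusted p = 9.87e-11), while that of Farsa was -0.77 ± 0.07 (adjusted p = 2.84e-07). The gap between the partner subunits was not itself tested. Aars1, the alanine enzyme, whose window holds the element printed above, had 133, 128 and 135 CPM in SEN and 483, 478 and 487 CPM in NC, a log2 difference of -1.42 ± 0.05 (adjusted p = 6.49e-12).

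The remaining cytosolic genes that fell did so by 0.33 (Hars1) to 1.41 (Gars1) on the log2 scale. Eprs1, the joint glutamate and proline enzyme, which in human cells also belongs to a complex that silences inflammatory messages, had 337, 345 and 353 CPM in SEN and 704, 691 and 695 CPM in NC. No SEN library reached an NC library, and the log2 difference was -0.56 ± 0.05 (adjusted p = 6.93e-08). The multi-synthetase complex was not uniform: of its 7 synthetases 5 fell (Eprs1, Iars1, Lars1, Mars1 and Rars1) and Kars1 and Qars1 rose on the TMM scale, both of which were lower with total counts. The 11 cytosolic genes listed as ATF4-responsive in other cells had a median log2 difference of -1.24 and the other 8 a median of -0.66. Of them 10 and 6 were lower, beside 38.5% of all genes tested. That list was drawn up with earlier results of these data known, and the gap between the medians was not tested. The 7 genes whose windows hold TGATGNAA had a median of -1.29 and the 10 cytosolic genes without it a median of -0.55. By catalytic class the medians were -1.08 for 9 class I genes and -0.77 for 9 class II genes, with Eprs1 belonging to both.

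Against the majority, Nars1 had a level near that of NC cells. It had 375.6, 374.1 and 361.6 CPM in SEN and 413, 434 and 433.9 CPM in NC. Every SEN library was below every NC library per total count, whereas on the TMM scale the gene rose by 0.25 ± 0.05 (adjusted p = 0.000329), a difference that turned to -0.20 with total counts. As a result Nars1 made up 17.8 ± 0.41% of all cytosolic synthetase counts in SEN cells, against 9.38 ± 0.227% in NC cells (SD, n = 3), a share that does not depend on the scale. Qars1, the glutamine enzyme, had 148, 131 and 135 CPM in SEN and 141.4, 141.1 and 146.9 CPM in NC. Its libraries overlapped, and its log2 difference of 0.40 ± 0.06 (adjusted p = 3.19e-05) became -0.05 with total counts, which was not called. Kars1, the lysine enzyme of both compartments, had 132.6, 123.8 and 130.1 CPM in SEN and 159, 157 and 152 CPM in NC. The SEN libraries lay below NC per total count, and the log2 difference was 0.18 ± 0.05 (adjusted p = 0.00727) with TMM and -0.28 with total counts.

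In the mitochondrial set Pars2 showed the steepest fall of all 35 genes. It had 11, 6 and 23 counts in the SEN libraries, against 346, 379 and 435 in the NC libraries, which is 0.287, 0.192 and 0.650 CPM in SEN and 10.0, 9.36 and 10.4 CPM in NC. The gene was close to the floor of detection in SEN cells (3 counts, 0.0781 to 0.0961 CPM) and well measured in NC cells, with a log2 difference of -4.24 ± 0.23 (adjusted p = 9.99e-10) that became -4.88 without SEN 3. Aars2, the mitochondrial alanine enzyme, had 1.30, 1.47 and 2.57 CPM in SEN and 11.8, 12.5 and 11.8 CPM in NC (log2 difference -2.30 ± 0.19, adjusted p = 8.75e-08). Lars2, the mitochondrial leucine enzyme, had 3.83, 3.40 and 2.97 CPM in SEN and 19.5, 19.9 and 19.7 CPM in NC (log2 difference -2.08 ± 0.10, adjusted p = 2.02e-10). For both genes the groups were separated several-fold. Ears2, which charges glutamate and, with the amidotransferase, feeds glutamine charging in mitochondria, had 0.833, 0.705 and 0.848 CPM in SEN and 3.45, 4.12 and 3.39 CPM in NC, a log2 difference of -1.74 ± 0.22 (adjusted p = 5.86e-06). Mutations of human AARS2, EARS2, LARS2 and PARS2 each cause inherited disease.

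The other mitochondrial genes that fell did so by 0.34 (Nars2) to 1.53 (Vars2) on the log2 scale. Mars2, the mitochondrial methionine enzyme, was the exception. It had 9.74, 9.55 and 8.88 CPM in SEN and 9.24, 10.3 and 10.2 CPM in NC. These libraries overlapped, and a log2 difference of 0.37 ± 0.09 (adjusted p = 0.00229) with TMM turned to -0.08 with total counts, which was not called. Among the 15 cytosolic and mitochondrial pairs for 1 amino acid (Farsa and Farsb both set beside Fars2), the cytosolic gene had the lower difference in 9 and the mitochondrial gene in 6. The call of Nars2 (adjusted p = 0.0221) was lost without SEN 1 or without NC 3, and the call of Kars1 without NC 3; no other SEN against NC call of a member was lost when 1 library was left out. With each library's trend with transcript length taken out, 16 cytosolic and 15 mitochondrial genes fell and 1 cytosolic gene (Qars1) rose, beside 51.5% of all genes lower and 29.7% higher. Without SEN 1 and BNPMT 1, 16 and 14 fell and 3 and 1 rose, beside 39.8% and 38.5% of all genes.

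**Figure D2:**
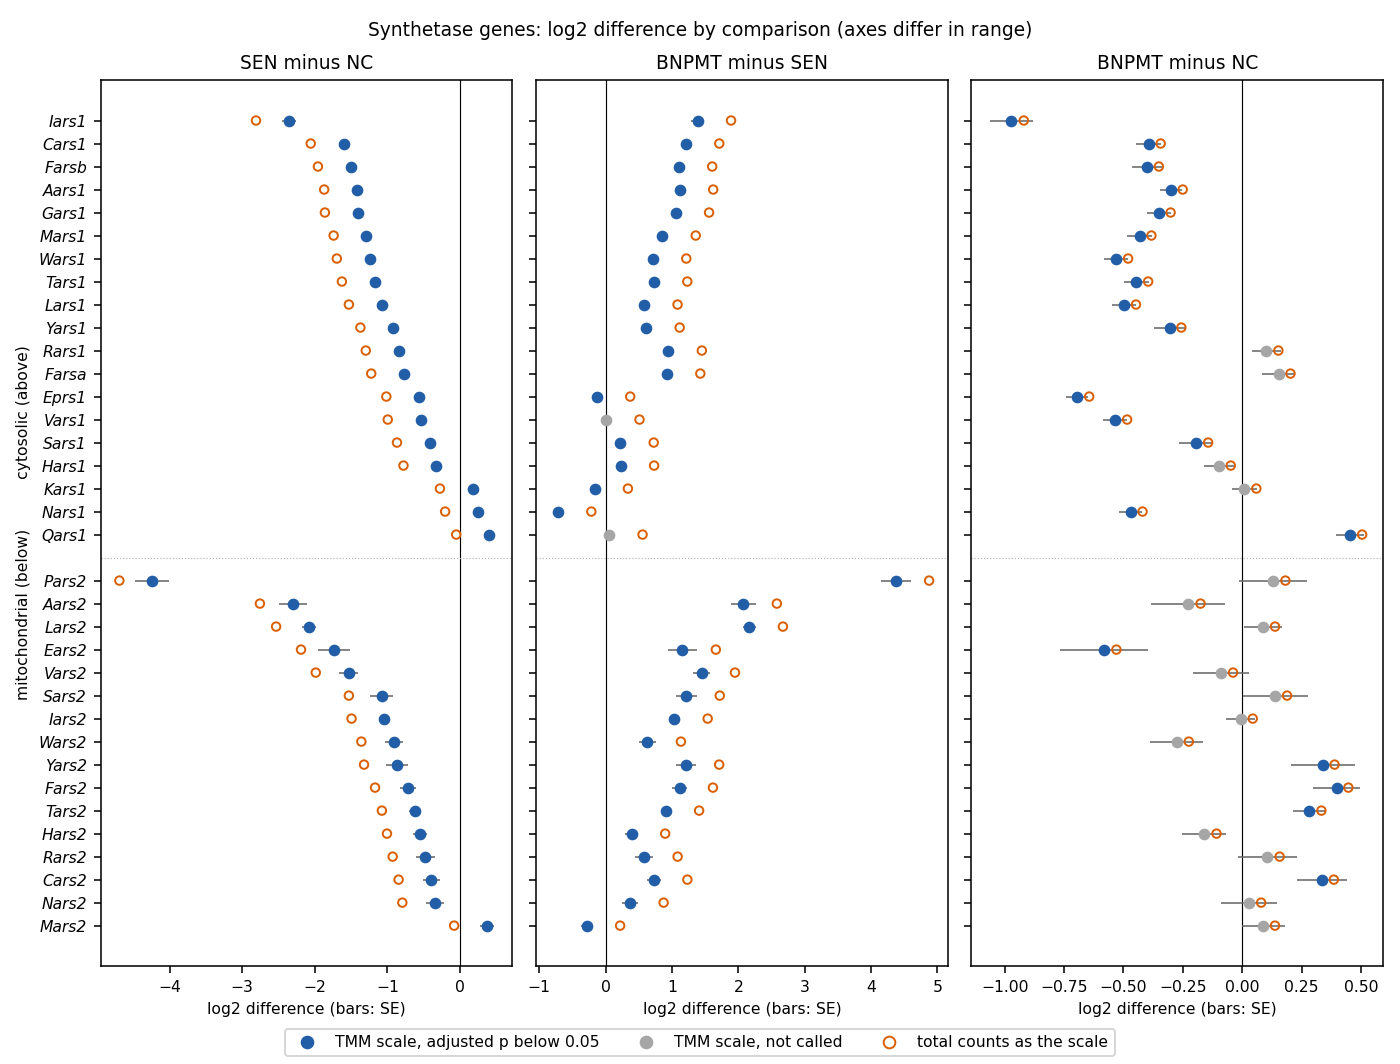
Log2 difference of each synthetase gene in 3 comparisons (SEN minus NC, BNPMT minus SEN, BNPMT minus NC), with cytosolic genes above the dotted line and mitochondrial genes below it; filled points use TMM (bars, SE; blue, adjusted p below 0.05; grey, not called) and open points use total counts. In SEN minus NC 31 of 35 filled points lie below 0 and Pars2 is lowest at -4.24, and in BNPMT minus NC 14 cytosolic genes and 1 mitochondrial gene are blue below 0.

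BNPMT against SEN asks what differed in senescent cells after the intervention, and most synthetase transcripts were higher in BNPMT cells. In the cytosolic set 14 of 19 genes rose, 3 fell (Eprs1, Kars1 and Nars1) and 2 did not pass the test (Qars1 and Vars1), beside 40.7% of all genes that rose and 39.9% that fell. In the mitochondrial set 15 of 16 rose and Mars2 fell. The median log2 difference was 0.71 in the cytosolic set and 1.08 in the mitochondrial set, against 0.02 for all genes. With total counts as the scale 18 cytosolic and all 16 mitochondrial genes rose, beside 57.3% of all genes, and Nars1 alone fell, beside 25.8%. With the length trend of each library taken out, 17 cytosolic and 15 mitochondrial genes rose, beside 51.9% of all genes, and Nars1 alone fell, beside 31.4%. Without SEN 1 and BNPMT 1, 15 and 14 rose, beside 40.7%, and 3 and 0 fell, beside 40.2%. This comparison shares the SEN libraries with the one above, so the directions are not independent of it.

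Pars2 had 12.2, 11.3 and 10.3 CPM in the BNPMT libraries against the 0.192 to 0.650 CPM of SEN, a log2 difference of 4.37 ± 0.23 (adjusted p = 5.72e-10) that became 5.01 without SEN 3. Lars2 had 22.3, 21.1 and 21.7 CPM in BNPMT cells against 2.97 to 3.83 CPM in SEN cells (log2 difference 2.17 ± 0.10, adjusted p = 1.1e-10). No library of one group came near the other for either gene. Aars2 had 12.1, 8.98 and 10.9 CPM in BNPMT cells against 1.30 to 2.57 CPM in SEN cells, with a log2 difference of 2.08 ± 0.19 (adjusted p = 2.31e-07). Vars2, the mitochondrial valine enzyme, had 11.9, 10.5 and 11.4 CPM in BNPMT and 2.89, 2.34 and 3.48 CPM in SEN (log2 difference 1.45 ± 0.13, adjusted p = 2.46e-07). Both genes were clear of overlap.

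Among the cytosolic genes Iars1 had 121.7, 92.7 and 94.1 CPM in the BNPMT libraries against 25.2 to 30.1 CPM in SEN, a log2 difference of 1.39 ± 0.09 (adjusted p = 9.46e-09). BNPMT 1 was the high library here. Cars1 had 107, 108.5 and 108.1 CPM in BNPMT cells against 31.3 to 34.3 CPM in SEN cells (log2 difference 1.21 ± 0.05, adjusted p = 1.18e-10), and Aars1 had 408.9, 401.8 and 406.7 CPM against 128 to 135 CPM (1.12 ± 0.05, adjusted p = 6.3e-11). Farsb had 71.6, 75.1 and 72.5 CPM in BNPMT cells against 22.9 to 25.4 CPM in SEN cells, and its log2 difference was 1.10 ± 0.07 (adjusted p = 2.14e-09). The BNPMT libraries lay above all SEN libraries for each of these genes.

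Nars1 went the other way. It had 317, 321 and 319 CPM in BNPMT cells, all below the 361.6 to 375.6 CPM of SEN cells, and its log2 difference was -0.72 ± 0.05 (adjusted p = 8.32e-09) with TMM and -0.21 with total counts, negative and called in all 20 alternatives. Its share of the cytosolic synthetase counts was 8.73 ± 0.071% in BNPMT cells against 17.8 ± 0.41% in SEN cells. For Eprs1 the BNPMT libraries had 459, 434 and 445 CPM, all above the 337 to 353 CPM of SEN, while the log2 difference was -0.13 ± 0.05 (adjusted p = 0.016) with TMM and 0.37 with total counts. Kars1 had 164, 157 and 167 CPM in BNPMT cells, above SEN per total count, and its log2 difference was -0.17 ± 0.05 (adjusted p = 0.00935) with TMM and 0.34 with total counts. Mars2 had 10.3, 11.2 and 11.3 CPM in BNPMT cells, with a log2 difference of -0.28 ± 0.09 (adjusted p = 0.0115) with TMM and 0.22 with total counts. The direction of these 3 genes therefore depends on the scale. The TMM calls of Eprs1 and Kars1 were also lost without BNPMT 2, that of Eprs1 without BNPMT 3 or without SEN 3, that of Nars2 without SEN 1 and that of Sars1 without SEN 2.

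**Figure D3:**
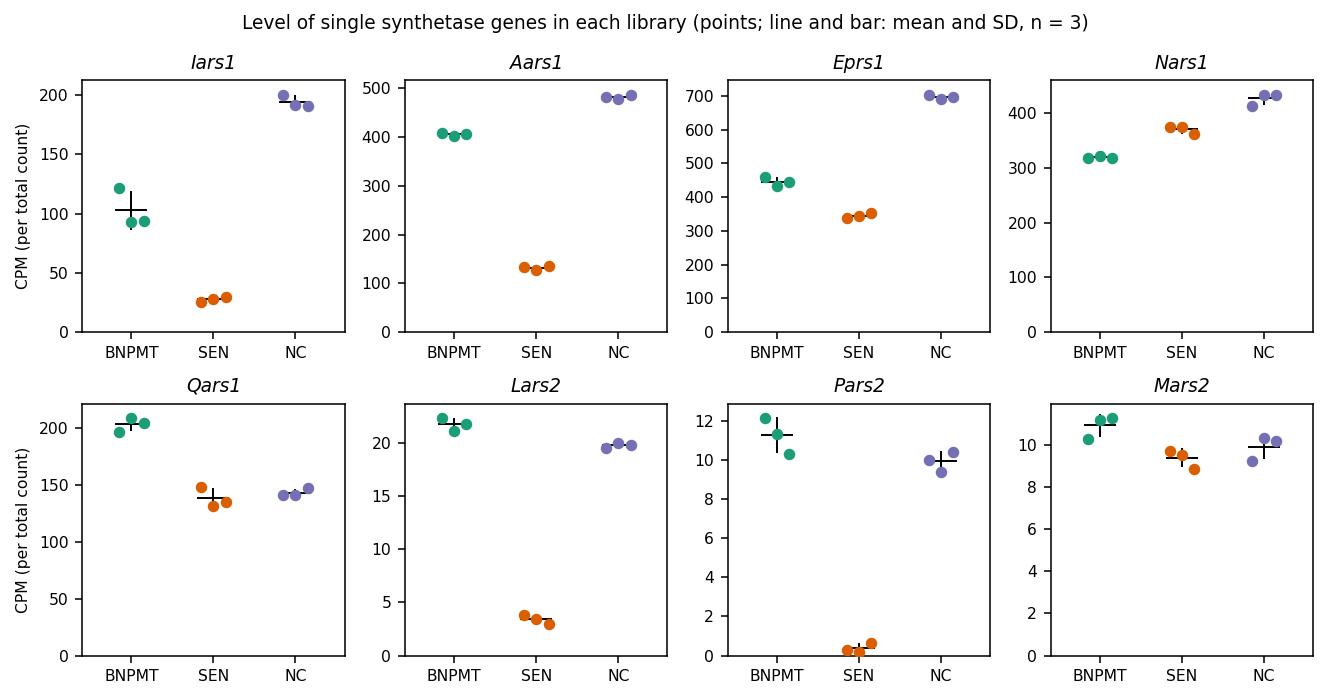
CPM (counts scaled to the library's total) of 8 synthetase genes in each of the 3 BNPMT, 3 SEN and 3 NC libraries, with the mean and SD; each panel starts at 0. Iars1, Aars1, Lars2 and Pars2 are low in SEN, Nars1 is lowest in BNPMT (317 to 321 CPM), Qars1 is highest in BNPMT, and the Mars2 libraries of SEN and NC overlap.

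BNPMT against NC asks how far cells given the intervention differ from the untreated control, and here most cytosolic genes were lower while most mitochondrial genes were not called. In the cytosolic set 14 of 19 genes were lower in BNPMT cells, 1 was higher (Qars1) and 4 did not pass the test (Farsa, Hars1, Kars1 and Rars1), with a median log2 difference of -0.39, beside 26.5% of all genes that were lower and 26.3% that were higher. In the mitochondrial set 4 of 16 were higher (Cars2, Fars2, Tars2 and Yars2), 1 was lower (Ears2) and 11 did not pass, with a median of 0.09. With total counts the cytosolic counts were 13 lower and 3 higher (Farsa, Qars1 and Rars1), Sars1 no longer passed, and the mitochondrial counts were the same, beside 22.5% of all genes lower and 30.2% higher. In 14 of the 15 pairs for 1 amino acid the cytosolic gene had the lower difference, the pair of Hars1 and Hars2 being the exception. With the length trend taken out, 16 cytosolic genes were lower and 1 higher and 1 mitochondrial gene was lower and 5 higher, beside 22.6% of all genes lower and 23.2% higher. Without SEN 1 and BNPMT 1, 14 cytosolic and 3 mitochondrial genes were lower and 3 and 4 higher, beside 30.6% and 29.6%. The SE was mostly larger for mitochondrial genes, so a call there needed a larger difference. Sars1 was called at -0.19 ± 0.07, while Wars2 at -0.28 ± 0.11 and Aars2 at -0.23 ± 0.15 were not. A difference between the sets was not tested.

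Iars1 was again the lowest, with its 92.7 to 121.7 CPM in BNPMT cells against 191 to 201 CPM in NC cells (log2 difference -0.97 ± 0.09, adjusted p = 2.7e-06). Eprs1 followed at 434 to 459 CPM in BNPMT against 691 to 704 CPM in NC (-0.69 ± 0.05, adjusted p = 1.39e-07). Vars1, the valine enzyme, had 161.8, 156.2 and 161.3 CPM in BNPMT and 227.8, 218.3 and 224.7 CPM in NC (-0.53 ± 0.05, adjusted p = 2.92e-06). For these genes, and for Wars1, the tryptophan enzyme (-0.53 ± 0.05, adjusted p = 3.66e-06; 109 to 120.0 CPM in BNPMT, 157 to 159 CPM in NC), no BNPMT library reached the NC range. Nars1 was lower too (-0.47 ± 0.05, adjusted p = 6.16e-06), and so was Sars1 (-0.19 ± 0.07, adjusted p = 0.0365), whose call was lost without BNPMT 1, NC 2 or NC 3. Qars1 had 196, 209 and 204 CPM in BNPMT cells against 141 to 147 CPM in NC cells, without overlap, a log2 difference of 0.46 ± 0.06 (adjusted p = 4.36e-05) that was called in all 20 alternatives.

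All 11 cytosolic genes listed as ATF4-responsive in other cells were lower in BNPMT cells than in NC cells (10 with total counts, where Sars1 did not pass), with log2 differences of -0.97 to -0.19. Of the other 8, 3 were lower (Farsb, Lars1 and Vars1), 1 was higher and 4 did not pass. Among all genes tested 26.5% were lower and 26.3% higher. All 7 genes with TGATGNAA in the window were lower (median -0.43), and of the 10 with a window that lacks it 6 were lower and 1 higher (median -0.30). Of the 266 other genes with the element in the window, 30.8% were lower and 23.7% higher in BNPMT against NC, beside 27.5% and 27.7% of all 11409 genes with a window. In SEN against NC 39.8% of the 266 fell and 36.5% rose, beside 40.4% and 36.7%. In BNPMT against SEN 41.4% fell and 37.2% rose, beside 39.0% and 42.9%, so outside the synthetases these shares lay near those of all genes. The list of ATF4-responsive genes was drawn up with earlier results of these data known.

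In the mitochondrial set the differences between BNPMT and NC cells were small. Fars2, the phenylalanine enzyme, had 15.3, 17.7 and 18.9 CPM in BNPMT and 12.1, 12.7 and 13.1 CPM in NC (log2 difference 0.40 ± 0.10, adjusted p = 0.00457). Tars2, the threonine enzyme, had 36.4, 35.7 and 39.4 CPM in BNPMT and 30.6, 28.2 and 29.8 CPM in NC (0.28 ± 0.07, adjusted p = 0.00463). Both pairs of groups were free of overlap and both genes were called in all 20 alternatives. Cars2 (0.34 ± 0.11, adjusted p = 0.0163) lost its call without BNPMT 2, BNPMT 3 or NC 1, and Yars2 (0.34 ± 0.13, adjusted p = 0.0486) lost it without any of 5 libraries (BNPMT 2, BNPMT 3, SEN 2, NC 1 and NC 3). Ears2 had 2.30, 2.08 and 3.19 CPM in BNPMT and 3.39 to 4.12 CPM in NC, a log2 difference of -0.58 ± 0.18 (adjusted p = 0.0175) whose call was lost without BNPMT 1, BNPMT 2 or NC 2. Pars2 and Lars2, the genes with large differences from SEN, were within 0.13 ± 0.14 (adjusted p = 0.465) and 0.09 ± 0.08 (adjusted p = 0.386) of NC.

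Summed over the 19 cytosolic genes, synthetase transcripts came to 3659 ± 23.9 CPM in BNPMT cells, 2077 ± 44.2 CPM in SEN cells and 4550 ± 35.3 CPM in NC cells (SD, n = 3). The 16 mitochondrial genes summed to 262 ± 9.88 CPM in BNPMT cells, 94.5 ± 2.70 CPM in SEN cells and 241 ± 3.68 CPM in NC cells. The cytosolic sum in BNPMT cells thus lay between the other groups, while the mitochondrial sum was above that of NC cells in every library. The ratio of the sums, which no scaling touches, was 14.0 ± 0.543 in BNPMT cells, 22.0 ± 1.04 in SEN cells and 18.9 ± 0.295 in NC cells, and the ranges of the 3 groups did not overlap. Abundant genes weigh most in such sums. Nars1 alone held 17.8% of the cytosolic sum in SEN cells, 9.38% in NC cells and 8.73% in BNPMT cells. Gene by gene, the median log2 differences in SEN against NC were nearly equal (-0.92 cytosolic, -0.89 mitochondrial). The higher ratio in SEN cells thus does not describe a typical gene of either set. In bulk RNA, fewer cells of a type and less RNA per cell cannot be told apart.

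**Figure D4:**
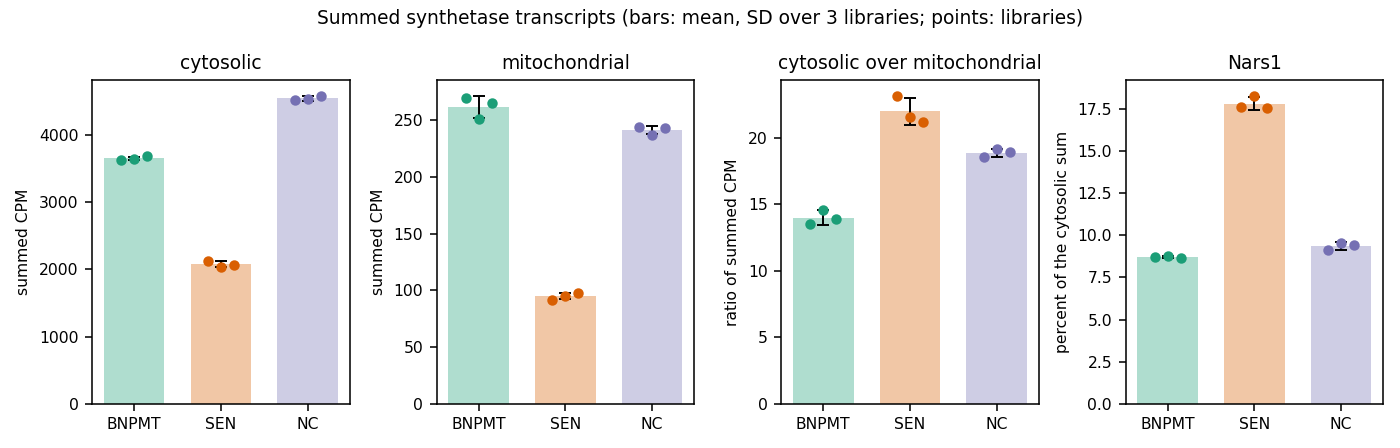
Summed CPM of the 19 cytosolic and the 16 mitochondrial synthetase genes, the ratio of these sums, and the percentage of the cytosolic sum held by Nars1, in BNPMT, SEN and NC cells; bars are means with the SD over 3 libraries and points are libraries. The ratio is lowest in BNPMT (14.0) and highest in SEN (22.0), and the Nars1 share in SEN is 17.8%.

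The genes around the synthetases were described from 6 lists. Their counts stand beside shares of all genes tested of 37.6% higher and 38.5% lower in SEN against NC (24.5% and 56.9% with total counts), 40.7% and 39.9% in BNPMT against SEN (57.3% and 25.8%), and 26.3% and 26.5% in BNPMT against NC (30.2% and 22.5%). In the amino acid response list, 29 of whose 30 genes were tested, 12 genes rose and 16 fell in SEN against NC (9 and 18 with total counts), 9 rose and 14 fell in BNPMT against SEN (17 and 10 with total counts), and 2 rose and 23 fell in BNPMT against NC. The 12 of 29 that rose in SEN cells lie near the share of all genes. Atf4 had 392, 463 and 445 CPM in BNPMT cells, 1143, 1021 and 1037 CPM in SEN cells and 504, 510.1 and 525 CPM in NC cells. SEN stood above both other groups, with log2 differences of 1.51 ± 0.07 for SEN against NC (adjusted p = 2.71e-10), -1.80 ± 0.07 for BNPMT against SEN (adjusted p = 4.08e-11) and -0.29 ± 0.07 for BNPMT against NC (adjusted p = 0.00347). These are transcript levels, and ATF4 is known to be controlled largely in its translation.

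The genes of that list named below were either fixed by name or picked for a small adjusted p. Their directions therefore do not stand for the whole list, in which 12 genes rose and 16 fell in SEN against NC. The transcription factor gene Atf3 had 712 to 776.5 CPM in SEN against 18.3 to 20.04 CPM in NC (log2 difference 5.72 ± 0.07), and Ppp1r15a, which encodes the stress-induced eIF2 alpha phosphatase subunit, 706 to 771 CPM against 93.3 to 96.8 CPM (3.41 ± 0.07). Gdf15, a secreted stress cytokine, differed by 4.55 ± 0.11, Ddit4, an inhibitor of mTORC1, by 2.12 ± 0.07, Ddit3, the CHOP gene, by 0.78 ± 0.10, and Chac1, which degrades glutathione, by 0.53 ± 0.07. The call of Chac1 was lost with total counts (0.073, adjusted p = 0.334). Asns, Aldh18a1, Gpt2, Trib3 and Pycr1 fell, Pycr1 by 0.91 ± 0.07 (log2 difference -0.91). Asns, asparagine synthetase, had 91.0 to 95.8 CPM in SEN against 237 to 249 CPM in NC (-0.93 ± 0.05), Aldh18a1, which begins proline synthesis, differed by -2.00 ± 0.05, Gpt2, the mitochondrial alanine aminotransferase, by -1.28 ± 0.05, and the pseudokinase gene Trib3 by -0.82 ± 0.05. All of these differences had an adjusted p of at most 1.31e-05 by edgeR, which for the picked genes follows from the choice. In BNPMT against NC, Asns (-0.71 ± 0.05), Aldh18a1 (-0.78 ± 0.05), Gpt2 (-1.03 ± 0.05), Chac1 (-0.78 ± 0.07) and Trib3 (-1.17 ± 0.05) were all lower, with adjusted p of at most 2.9e-06, and Ddit3 was not called (0.19 ± 0.10, adjusted p = 0.119).

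Of 15 genes for the eIF2 alpha kinases, exchange factor and phosphatase, 5 rose and 9 fell in SEN against NC, 9 rose and 5 fell in BNPMT against SEN, and 4 rose and 4 fell in BNPMT against NC (5 and 3 with total counts), the last near the shares of all genes. Eif2ak4, the sensor of uncharged tRNA, had 30.6 to 35.1 CPM in BNPMT, 9.25 to 12.4 CPM in SEN and 29.8 to 31.6 CPM in NC. It was lower in SEN than in both other groups, with log2 differences of -1.004 ± 0.10 for SEN against NC (adjusted p = 4.96e-07) and 1.02 ± 0.10 for BNPMT against SEN (adjusted p = 3.57e-07). Eif2ak3, the kinase PERK of the endoplasmic reticulum, rose in SEN by 1.09 ± 0.07 (adjusted p = 3.09e-09), and Gcn1, the partner of GCN2, fell by 1.07 ± 0.08 on the log2 scale (adjusted p = 1.55e-08). Of 22 amino acid transporters 10 rose and 11 fell in SEN against NC (6 and 12 with total counts), 7 rose and 13 fell in BNPMT against SEN (10 and 9 with total counts), and 1 rose and 15 fell in BNPMT against NC. Slc7a5, the large neutral amino acid carrier, had 155 to 165 CPM in BNPMT against 315 to 322 CPM in NC (-1.05 ± 0.05, adjusted p = 4.74e-09), and the glutamine carrier gene Slc1a5 had 47.5 to 49.5 CPM in BNPMT, 166 to 168 CPM in SEN and 84.7 to 88.5 CPM in NC.

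Partners of mitochondrial tRNAs and translation, a list that also holds translation factors, mostly fell in SEN against NC. Of 23 tested, 15 fell and 4 rose in SEN against NC (20 and 1 with total counts), 15 rose and 3 fell in BNPMT against SEN (21 and 0 with total counts), and 7 rose and 2 fell in BNPMT against NC (13 and 1 with total counts). Trmt5, a tRNA methyltransferase, had 15.3 to 17.7 CPM in BNPMT, 1.05 to 1.30 CPM in SEN and 9.73 to 14.4 CPM in NC, and Mtfmt, which formylates the initiator methionine, 13.6 to 15.5 CPM in BNPMT, 2.56 to 2.76 CPM in SEN and 10.1 to 11.2 CPM in NC. Gatb and Gatc, subunits of the amidotransferase that acts after Ears2, were higher in BNPMT than in NC cells (0.57 ± 0.09, adjusted p = 0.000229, and 0.44 ± 0.09, adjusted p = 0.00134). The other subunit gene, Qrsl1, named after its values were seen, was not called there (0.071 ± 0.14, adjusted p = 0.707). Of 16 cytosolic charging partners 4 rose and 9 fell in SEN against NC (3 and 13 with total counts), 11 rose and 4 fell in BNPMT against SEN, and 6 rose and 1 fell in BNPMT against NC. The 1 gene that fell there was Xpot, the tRNA exporter, with 130.0 to 153 CPM in BNPMT against 263 to 269 CPM in NC (-0.97 ± 0.06, adjusted p = 1.45e-07). Of 19 genes for tRNA transcription by RNA polymerase III 2 rose and 13 fell in SEN against NC, 14 rose and 4 fell in BNPMT against SEN (17 and 2 with total counts), and 4 rose and 9 fell in BNPMT against NC. The 2 that rose in SEN were Myc, a transcription factor that also binds E-boxes (2.30 ± 0.06, adjusted p = 5.19e-13), and Bdp1, a subunit of the initiation factor TFIIIB (2.07 ± 0.10, adjusted p = 3.99e-10).

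**Figure D5:**
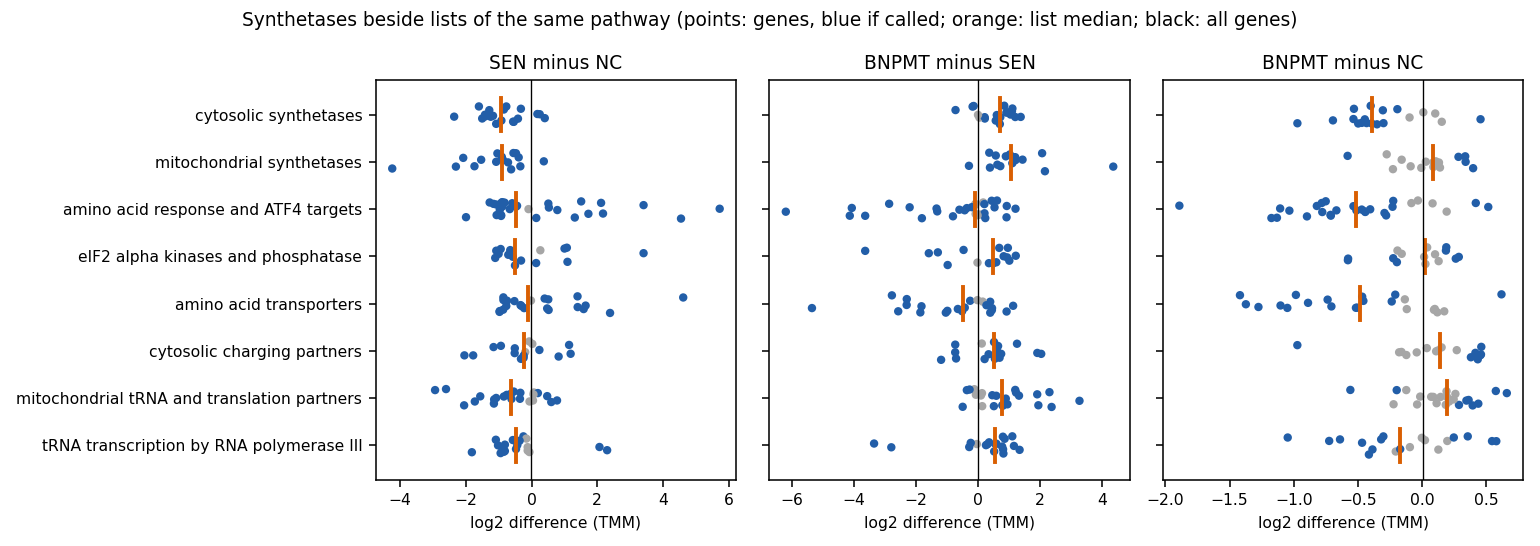
Log2 difference (TMM) of each gene of the 2 synthetase sets and of 6 lists around them in SEN minus NC, BNPMT minus SEN and BNPMT minus NC; blue points were called, grey points were not, orange bars are list medians and the black line is the median of all genes. In BNPMT minus NC the medians of the cytosolic synthetases (-0.39), the ATF4 targets (-0.51) and the transporters (-0.49) lie below the line, and that of the mitochondrial synthetases (0.09) lies near it.

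Marker genes of the tissue and of other cell types moved between the groups as well. The summed level of 14 nucleus pulposus markers was 2494 to 2718 CPM in BNPMT, 7297 to 7428 CPM in SEN and 5328 to 5600 CPM in NC libraries. Each of the 14 had counts in every group, but a few abundant genes can dominate such a sum. Only 11 passed the filter, and they did not move together. In SEN against NC 7 were higher and 3 lower, beside 37.6% and 38.5% of all genes. In BNPMT against SEN 3 were higher and 7 lower, beside 40.7% and 39.9%. In BNPMT against NC 1 was higher and 5 lower, beside 26.3% and 26.5%. Over 8 smooth muscle markers the sum was 2903 to 3128 CPM in BNPMT, 1607 to 1786 CPM in SEN and 5011 to 5053 CPM in NC libraries. The 6 macrophage and leukocyte markers in the table summed to 0.541 to 0.810 CPM in BNPMT, 32.2 to 35.9 CPM in SEN and 0.263 to 1.16 CPM in NC libraries. Adgre1 and Itgam had no counts in BNPMT, Adgre1 had none in SEN, where Cd68 made up most of the sum, and Mrc1 and Itgam had none in NC. Of these markers 4 passed the filter. All 4 were higher in SEN against NC (log2 differences of 3.17 to 10.96), beside 37.6% of all genes, and all 4 lower in BNPMT against SEN, beside 39.9%. In BNPMT against NC 0 were higher and 1 lower, beside 26.3% and 26.5%. The 7 endothelial markers in the table summed to 0.981 to 1.54 CPM in BNPMT, 4.95 to 5.54 CPM in SEN and 1.04 to 1.55 CPM in NC libraries, with Cdh5 and Emcn at 0 in BNPMT and Cdh5, Tie1 and Emcn at 0 in NC. Their part in the synthetase differences was not tested.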

How the data were processed

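PolyA RNA libraries were made with the VAHTS Universal V6 kit, per the labels' protocols. Per the submitters' processing notes, the tools were HISAT2, HTSeq and fastp with build mRatBN7.2 and no versions. With annotation and strandedness not given in the sources used here, overlapping genes may share reads. The authors deposited whole-number counts per gene and an FPKM table, whose values equal the count over length and total count (largest relative difference 6.71e-16). Counts were filtered with filterByExpr, scaled by TMM and tested with the quasi-likelihood F test of edgeR 4.0.16 (R 4.3.3) in a layout of 3 groups on all 9 libraries, at a Benjamini-Hochberg adjusted p of 0.05. The SE is the log2 difference over the root of F. The fit was tested on simulated counts. FPKM gave levels and a limma 3.58.1 alternative on log2(FPKM + 1) and log2(FPKM + 0.1), whose constant understates changes of low genes. Other alternatives were DESeq2 1.42.0, DESeq2 size factors, total counts, no filter, 1 CPM in 3 libraries, the 2 groups alone, a replicate block, a loess correction for length (span 0.5), each library left out, and SEN 1 with BNPMT 1 left out.

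The members and lists were chosen with earlier results of these data known. Of other genes, those named come from the 4 with the smallest adjusted p in each list and comparison, plus Atf4, Ddit3, Trib3, Asns, Chac1 and Eif2ak4. Members are given by library where their change was largest, went against their set or depended on the scale. Promoter windows are from RefSeq (GRCr8), a build other than that of the counts. One promoter sequence is not reported here. No 2 libraries of a group were duplicates (chi-square per degree of freedom 3.52 to 33.8).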

Additional observations from a re-analysis of the deposited data

How the results depend on the processing

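Of the 20 alternatives, the length correction changed the most differences of members (8 turned sign, 5 gained and 4 lost a call), followed by total counts and both FPKM settings (8, 4 and 1 each). The length correction took out the level of each library's trend line along with its slope. With it the median log2 difference of all genes was -0.30 in SEN against NC and 0.31 in BNPMT against SEN (-0.01 and 0.02 with TMM). Its changes in these comparisons therefore hold a change of scale as well, and the parts were not separated. The scale moved the counts over all genes most in both comparisons with SEN. With total counts, limma on log2(FPKM + 1) and limma on log2(FPKM + 0.1), all genes called higher in SEN against NC numbered 3667, 3651 and 3673 (5628 with TMM) and those lower in BNPMT against SEN 3857, 3782 and 3829 (5969 with TMM). These 3 settings left 0 cytosolic and 0 mitochondrial genes higher in SEN against NC, 1 cytosolic and 0 mitochondrial lower in BNPMT against SEN, and 3 cytosolic higher in BNPMT against NC. With the trend of length taken out the counts were 1 and 0 higher in SEN against NC and 1 and 0 lower in BNPMT against SEN. Of all genes 29.7% were then higher and 51.5% lower in SEN against NC, and 31.4% lower in BNPMT against SEN. No filter left 1 cytosolic and 0 mitochondrial lower in BNPMT against SEN, beside 31.3% of all genes. The mitochondrial genes lower in BNPMT against NC were 2 (Ears2 and Wars2) under DESeq2 size factors, the DESeq2 Wald test, 1 CPM in 3 libraries and a fit of the 2 groups alone. Of all genes 27.0%, 27.3%, 29.7% and 28.9% were lower there, in that order. The fit of the 2 groups alone also gave 2 cytosolic higher, beside 28.2% of all genes. Without SEN 1 and BNPMT 1 together 0 mitochondrial genes were lower in BNPMT against SEN, beside 40.2% of all genes. In BNPMT against NC 3 mitochondrial genes were lower, beside 30.6%, and 3 cytosolic were higher, beside 29.6%. When 1 library was left out, the counts of BNPMT against NC lay between 1 and 2 for cytosolic higher, 2 and 4 for mitochondrial higher and 0 and 2 for mitochondrial lower, and those of BNPMT against SEN between 1 and 3 for cytosolic lower. In these fits 21.3% to 27.8% of all genes were higher and 21.8% to 28.2% lower in BNPMT against NC. In BNPMT against SEN 38.3% to 40.5% were lower. Per TMM library size the cytosolic sum was 3220 CPM in BNPMT, 2590 in SEN and 4146 in NC, and the mitochondrial sum 230.3 in BNPMT, 117.9 in SEN and 219.9 in NC. The cause of these changes was not tested beyond the settings themselves.

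Signs turned as follows, as log2 differences. In the comparisons with SEN, values by length include the change of scale described above. For SEN against NC, with total counts, FPKM + 1 and FPKM + 0.1, Kars1 was -0.28, -0.27 and -0.28 (-0.090 by length), Nars1 -0.20, -0.20 and -0.20, Qars1 -0.0521, -0.0529 and -0.0539, and Mars2 -0.081, -0.052 and -0.075. For BNPMT against SEN, in the same order, Eprs1 was 0.37, 0.37 and 0.37 (0.30 by length), Kars1 0.34, 0.33 and 0.34, Mars2 0.22, 0.15 and 0.21 (0.078 by length), and Trib3 0.15, 0.14 and 0.15. DESeq2 size factors and Wald test gave -0.011 and -0.011 for Qars1, -0.058 and -0.058 for Vars1 in BNPMT against SEN, and 0.039 and 0.039 for Slc7a5 in SEN against NC. The filter of 1 CPM gave -0.029 for Vars1 and 0.019 for Slc7a5, and the 2 groups alone -0.0040 for Vars1. In BNPMT against NC the uncalled Iars2 was 0.044 with total counts, 0.040 by length and 0.039 and 0.041 by FPKM, and the length trend gave Kars1 -0.12, Rars1 -0.042, Sars2 -0.049, Vars2 0.0014, Qrsl1 -0.099 and Ddit3 -0.17. Leaving out 1 library, the uncalled differences ranged over -0.018 to 0.023 for Kars1, -0.056 to 0.026 for Iars2, -0.052 to 0.092 for Nars2, -0.081 to 0.20 for Qrsl1 and -0.044 to 0.047 for Eif2ak4 in BNPMT against NC, and -0.020 to 0.039 for Vars1 in BNPMT against SEN. Without SEN 1 and BNPMT 1, Nars2 was -0.034 and Eif2ak4 -0.048.

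Libraries that share a replicate number did not deviate together (correlations of -0.18 to 0.05), so the numbers were not taken as pairs. A replicate block left 16 and 15 lower in SEN against NC, beside 37.6% of all genes, and 14 and 15 higher in BNPMT against SEN, beside 39.9%. It left 13 cytosolic lower in BNPMT against NC, beside 24.8% of all genes, and there the call of Sars1 was lost. Depth limits Pars2 and Ears2 in SEN cells, with 6 to 32 counts a library.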
